A study of Mus musculus with 6 samples.

Results

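The neuropeptide precursor and granin genes followed in mouse hippocampus were Penk, Pdyn, Tac1, Tac2, Nts, Cartpt, Scg2, Vgf, Chga and Chgb. They were chosen by name, and all 10 were found among the 37620 gene identifiers of the count tables and all 10 were among the 16432 genes tested. RNA was sequenced from the hippocampi of 3 knockout mice, labelled as lacking the miR-17-92 cluster, and of 3 wildtype mice. All mice were of the C57BL/6 strain and 13 weeks old, each came from its own litter, and no treatment is given in the labels. The miR-17-92 cluster is a group of microRNAs cut from a single transcript, Mir17hg, and the series title links it to the birth of neurons in the adult hippocampus and to anxiety and depression. Neither the deleted stretch nor the cells in which it was deleted, nor any Cre driver, is given in the sources used here.

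Neuropeptides are made as long precursor proteins that enter the regulated secretory pathway, are packed into dense-core vesicles, and are cut into active peptides by proprotein convertases and trimmed by carboxypeptidases. Granins are acidic proteins of the same vesicles, which help form them and are themselves cut into peptides. In the hippocampus, enkephalins and dynorphins are opioid peptides released from interneurons and from the axons of dentate granule cells, and the transcription of several precursors and granins follows neuronal activity through cyclic AMP response elements.

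For each hairpin of the cluster, 1 mature microRNA is shown, from the arm usually taken as the active strand, and the other arms were not searched. The seeds of those shown (bases 2 to 8, in capitals), which pair with messenger RNA, define the sites that were sought in the 10 genes. RefSeq places these microRNAs on the plus strand of chromosome 14 of GRCm38.p6, from 115043684 to 115044496. The first pair share 1 seed, miR-18a-5p differs from them in its seed, and the miR-19 pair share another.
mmu-miR-17-5p: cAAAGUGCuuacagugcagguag
mmu-miR-20a-5p: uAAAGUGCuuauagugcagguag
mmu-miR-18a-5p: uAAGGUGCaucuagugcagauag
mmu-miR-19a-3p: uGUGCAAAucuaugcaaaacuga
mmu-miR-19b-3p: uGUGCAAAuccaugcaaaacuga
mmu-miR-92a-3p: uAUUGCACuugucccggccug
The DNA letters that pair with these seeds were sought on the strand of the transcript. None of the 10 genes held any of them in its longest annotated 3' UTR (GENCODE M21), which ran in length from 238 bases in Tac2 to 1436 bases in Pdyn. Among 14533 protein-coding genes tested, 14.9% held GCACTTT, the site of miR-17-5p and miR-20a-5p, 10.2% held GCACCTT, that of miR-18a-5p, 13.8% held TTTGCAC, that of the miR-19 pair, and 7.98% held GTGCAAT, that of miR-92a-3p. The absence says only that these letters are not in those UTRs.

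Reads assigned to genes numbered 32284831, 26439693 and 57246827 in knockout libraries 1, 2 and 3, and 40100762, 43588323 and 31731263 in wildtype libraries 1, 2 and 3. Levels are CPM, that is, read counts scaled to a common total of gene reads in each library. Mir17hg itself, the check on the labels, was at 30, 35 and 37 reads (0.970 ± 0.342 CPM, SD, n = 3) in knockout libraries, against 43, 47 and 36 reads (1.09 ± 0.0328 CPM, n = 3) in wildtype libraries. The genotypes overlapped, the log2 fold was -0.22 with a standard error of 0.28, and the adjusted p by edgeR's quasi-likelihood test was 0.813. The level of the host transcript thus did not separate the genotypes, and reads over its whole length need not report a deletion within it. Dissection was checked with marker lists. Dentate granule cell markers summed to 715 to 742 CPM in knockout and 594 to 635 CPM in wildtype libraries, with Prox1 and Calb1 the most abundant, and CA1 markers, led by Mpped1 and Wfs1, to 586 to 617 CPM against 626 to 666 CPM. Of the 8 dentate markers, only Calb1 and Pter had an unadjusted p under 0.05 by edgeR's quasi-likelihood test, and DESeq2 called both. Over all genes, these shares were 10.6% of those tested and 1.25% of those that DESeq2 gave an adjusted p. Their means were 173 and 148 CPM in knockout, against 126 and 112 CPM in wildtype hippocampus. Prox1 had a log2 fold of 0.09, and C1ql2 one of -0.15. All 8 hypothalamic markers stayed below 1 CPM in every library, with Six3 at 0 reads, as was the CA1 marker Pou3f1, so that a 0 for a single marker says little here. Striatal markers, led by Pde10a and Ppp1r1b, summed to 155 to 174 CPM in knockout and 173 to 174 CPM in wildtype libraries. Meningeal markers, led by Ptgds and Dcn, summed to 370 to 459 CPM against 267 to 306 CPM, higher in every knockout library. Ptgds made up much of these sums, with means of 267 CPM in knockout and 174 CPM in wildtype hippocampus. All 8 had a positive log2 fold. An unadjusted p under 0.05 by edgeR's quasi-likelihood test was found for 5, and 5 did not overlap, against 10.6% and 16.6% of all genes tested. DESeq2 called 3, all higher, against 1.25% of the genes that it gave an adjusted p. In bulk tissue, fewer cells of a type and less RNA per cell cannot be told apart.

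No gene passed an adjusted p of 0.05 in the comparison of knockout with wildtype by edgeR's quasi-likelihood test (0% of 16432 genes, smallest adjusted p 0.0624), and so none of the 10 did. The unadjusted p was under 0.05 for 1746 genes (10.6% of those tested), and for 2 of the 10, Scg2 and Vgf. DESeq2 called 164 of the 13109 genes that it gave an adjusted p (1.25%), with 75 higher and 89 lower in knockout hippocampus, and none of the members among them. It gave Cartpt no adjusted p. The ranges of the genotypes were apart for 2733 genes (16.6%), and for Scg2 and Vgf among the 10. The 2 of 10 members that did not overlap are thus a share near that of all genes. Log2 folds were positive for 7 members and negative for 3, with a median of 0.05 against 3.93e-05 over all genes tested.

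**Figure D1:**
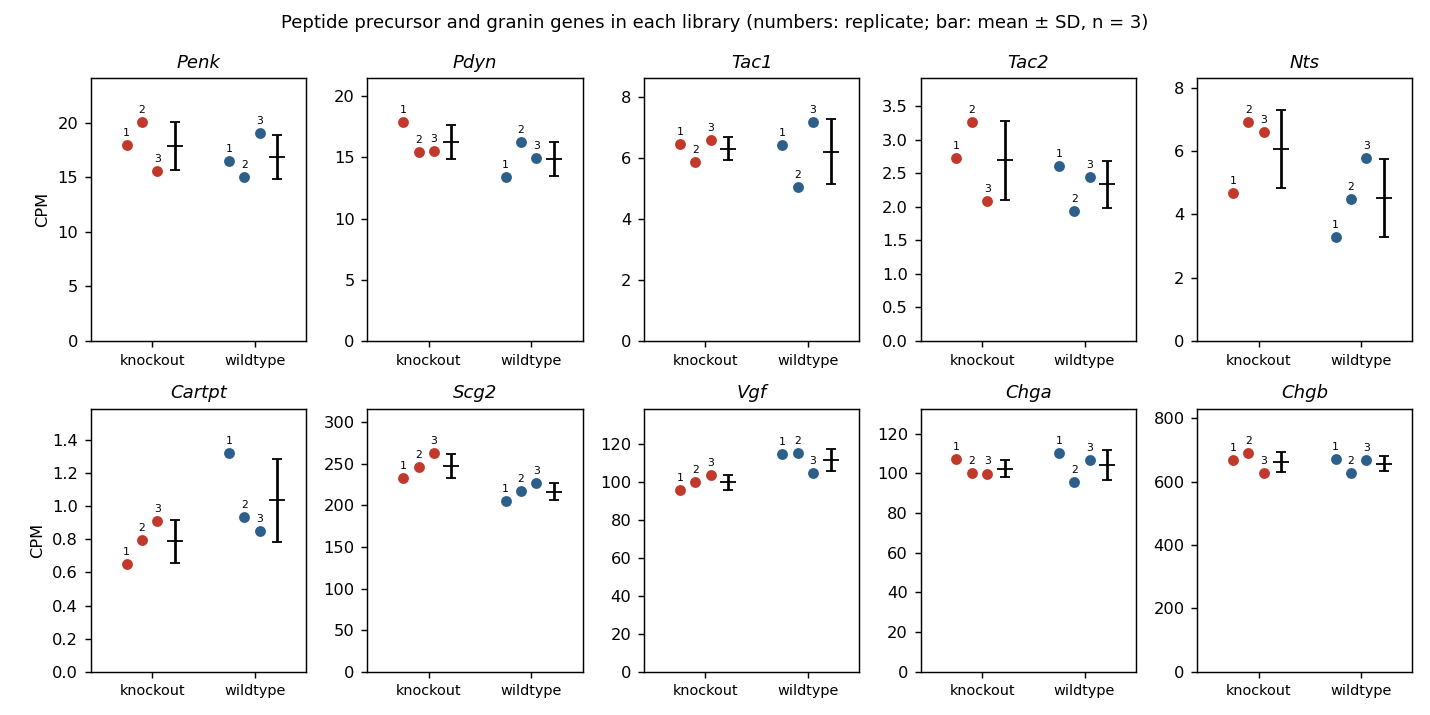
Level of each of the 10 genes in CPM (vertical axes, each from 0) in the 3 knockout (red, left) and 3 wildtype (blue, right) libraries. Small digits give the replicate and black bars the mean ± SD. The genotypes are apart for Scg2 and Vgf and overlap for the other 8 genes.

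Penk (ENSMUSG00000045573, chromosome 4) encodes preproenkephalin, the source of the enkephalins. Its level was 17.9, 20.0 and 15.6 CPM in knockout libraries 1, 2 and 3, against 16.5, 15.0 and 19.1 CPM in wildtype libraries 1, 2 and 3. Knockout library 2 was highest and wildtype library 2 lowest, and the genotypes overlapped. The log2 fold was 0.08 (95% interval -0.18 to 0.34), with an adjusted p of 0.837 by edgeR's quasi-likelihood test, so that a change of up to 1.27-fold upwards lies within the interval. Penk shares 233 bases of exon with an antisense RNA, A830012C17Rik, which had 1 to 8 reads in a library where Penk had 528 to 890.

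Pdyn (ENSMUSG00000027400, chromosome 2) encodes prodynorphin, the precursor of the dynorphins, which dentate granule cells store in their mossy fibre terminals. It was at 17.9, 15.5 and 15.5 CPM in knockout libraries, against 13.4, 16.2 and 15.0 CPM in wildtype libraries. Knockout library 1 stood highest and wildtype library 1 lowest, and the other 4 libraries lay between 15.0 and 16.2 CPM. The log2 fold was 0.13 (95% interval -0.09 to 0.34), and the adjusted p by edgeR's quasi-likelihood test was 0.662. Dentate granule cell markers had a median log2 fold of 0.17, with 7 of 8 positive. Only Calb1 and Pter among them had an unadjusted p under 0.05 by edgeR's quasi-likelihood test, against 10.6% of all genes tested. The part of these markers in the level of Pdyn was not tested.

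Tac1 (ENSMUSG00000061762, chromosome 6) encodes the precursor of substance P and neurokinin A. Its 6.47, 5.88 and 6.61 CPM in knockout libraries lay inside the spread of 6.43, 5.05 and 7.18 CPM in wildtype libraries. Both the lowest and the highest value were those of wildtype libraries. The log2 fold was 0.03 (95% interval -0.29 to 0.35), with an adjusted p of 0.957 by edgeR's quasi-likelihood test. Tac2 (ENSMUSG00000025400, chromosome 10), the precursor of neurokinin B, was at 2.74, 3.26 and 2.09 CPM in knockout libraries and 2.62, 1.94 and 2.45 CPM in wildtype libraries. Its libraries were interleaved, and they rest on 78 to 119 reads each. The log2 fold of Tac2 was 0.19 (95% interval -0.27 to 0.65), with an adjusted p of 0.772 by edgeR's quasi-likelihood test.

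Nts (ENSMUSG00000019890, chromosome 10), the precursor of neurotensin and neuromedin N, varied most between libraries, over a range of 1.05 on the log2 scale. It was at 4.66, 6.91 and 6.61 CPM in knockout libraries, against 3.29, 4.48 and 5.77 CPM in wildtype libraries. Knockout libraries 2 and 3 were above every wildtype library, and knockout library 1 was below wildtype library 3. The log2 fold was 0.43 (95% interval -0.06 to 0.93), the farthest from 0 among the 10, and the adjusted p by edgeR's quasi-likelihood test was 0.529. Cartpt (ENSMUSG00000021647, chromosome 13) encodes the cocaine- and amphetamine-regulated transcript peptide. It was at 0.653, 0.797 and 0.911 CPM in knockout libraries, against 1.32, 0.937 and 0.847 CPM in wildtype libraries, from 21 to 53 reads a library. Wildtype library 1 was highest, and knockout library 3 was above wildtype library 3. The log2 fold of -0.38 had a 95% interval of -0.96 to 0.20, and the adjusted p by edgeR's quasi-likelihood test was 0.626. At this depth neither a fall to 0.514 times nor a rise to 1.15 times the wildtype level could be told from no change.

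Scg2 (ENSMUSG00000050711, chromosome 1) encodes secretogranin II, a granin from which the peptide secretoneurin is cut. Its level was 233, 246 and 263 CPM in knockout libraries 1, 2 and 3, against 205, 217 and 226 CPM in wildtype libraries 1, 2 and 3. Every knockout library was above every wildtype library. The mean was 247 ± 14.8 CPM in knockout and 216 ± 10.4 CPM in wildtype hippocampus (SD, n = 3 each), a fold of 1.14 (95% interval 1.05 to 1.25). The unadjusted p of edgeR's quasi-likelihood test was 0.00701, which ranked it 350th among the genes tested, and the adjusted p was 0.329. DESeq2 gave an adjusted p of 0.0884.

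Vgf (ENSMUSG00000037428, chromosome 5) encodes a precursor of secreted peptides that neurotrophins and neuronal activity induce. It was at 95.7, 100.0 and 104 CPM in knockout libraries, against 115, 115 and 105 CPM in wildtype libraries. The genotypes did not overlap, but knockout library 3, at 103.8 CPM, was close to wildtype library 3, at 104.9 CPM. The mean was 99.8 ± 4.03 CPM in knockout and 112 ± 5.89 CPM in wildtype hippocampus (SD, n = 3 each), a fold of 0.894 (95% interval 0.822 to 0.972). The adjusted p of edgeR's quasi-likelihood test was 0.358, and that of DESeq2 was 0.237. Scg2 and Vgf, both granins, thus had folds on opposite sides of 1.

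Chga (ENSMUSG00000021194, chromosome 12) and Chgb (ENSMUSG00000027350, chromosome 2) encode chromogranins A and B, which are general constituents of dense-core vesicles. Chga was at 107, 100.0 and 100.0 CPM in knockout libraries, against 110, 95.8 and 107 CPM in wildtype libraries. Its log2 fold was -0.03 (95% interval -0.16 to 0.11), with an adjusted p of 0.911 by edgeR's quasi-likelihood test. Chgb was at 669, 690 and 626 CPM in knockout libraries, against 671, 628 and 668 CPM in wildtype libraries. Its log2 fold was 0.01 (95% interval -0.09 to 0.12), with an adjusted p of 0.950 by edgeR's quasi-likelihood test. For both genes the libraries were interleaved, and of the 8 intervals that hold 0 these are the narrowest, bounded at 0.893 to 1.08 times for Chga and 0.937 to 1.09 times for Chgb.

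**Figure D2:**
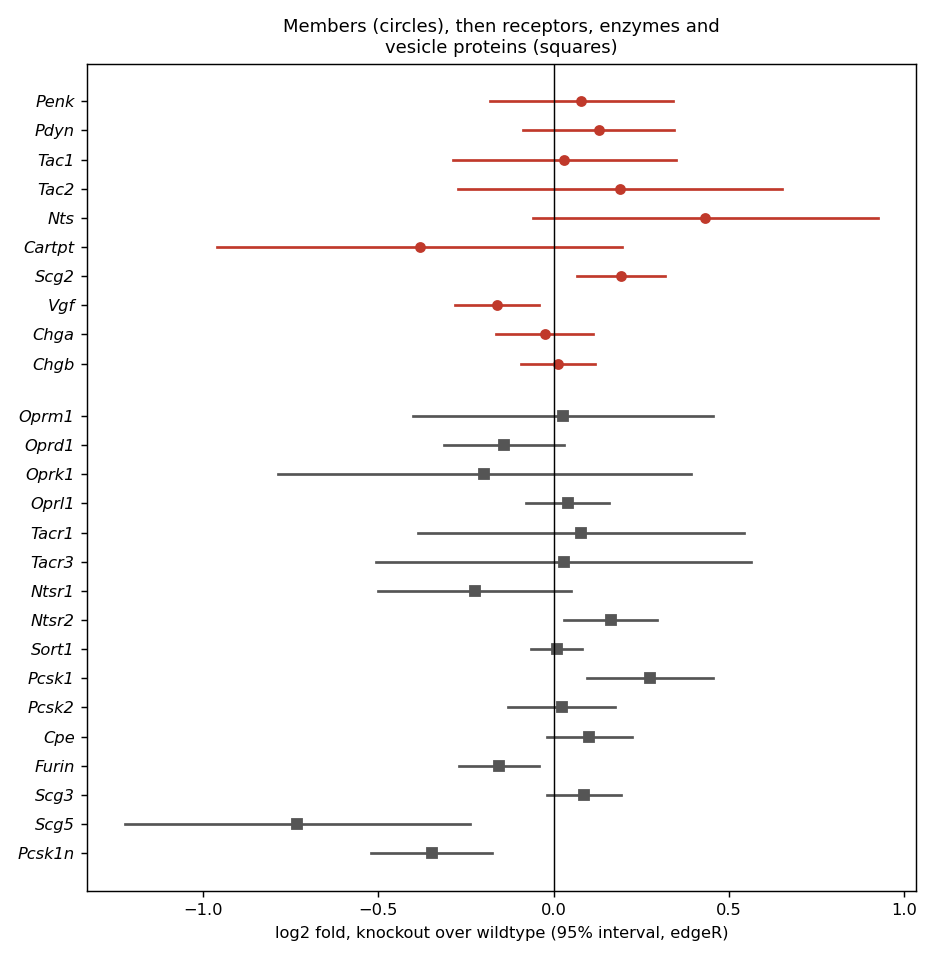
Log2 fold of knockout over wildtype (horizontal axis) with its 95% interval from edgeR, for the 10 genes (red circles) and for receptors, processing enzymes and vesicle proteins (grey squares). Intervals that leave out 0 are those of Scg2, Vgf, Ntsr2, Pcsk1, Furin, Scg5 and Pcsk1n, and none of the genes drawn had an edgeR adjusted p under 0.05.

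Levels of different genes were compared per kilobase of exon. Chgb was highest, with a mean of 240 CPM per kilobase over the 6 libraries (228 to 252), and 2.61 times the mean of Scg2, at 92.1 (81.7 to 104). Chga, at 37.5 (34.8 to 40.0), and Vgf, at 35.6 (32.2 to 38.8), overlapped in their libraries. Penk followed at 10.6 (9.19 to 12.3), apart from Pdyn at 5.40 (4.65 to 6.19). The libraries of Pdyn and Nts, at 4.24 (2.63 to 5.53), overlapped, as did those of Tac1, at 1.84 (1.49 to 2.11), and Tac2, at 1.83 (1.41 to 2.37). Cartpt was lowest, at 0.713 (0.511 to 1.03). The 10 genes together took 1155, 1188 and 1139 CPM in knockout libraries, against 1146, 1100 and 1156 CPM in wildtype libraries, and the 4 granins held 95.6% to 96.2% of that sum in every library. The genotypes overlapped in this sum.

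**Figure D3:**
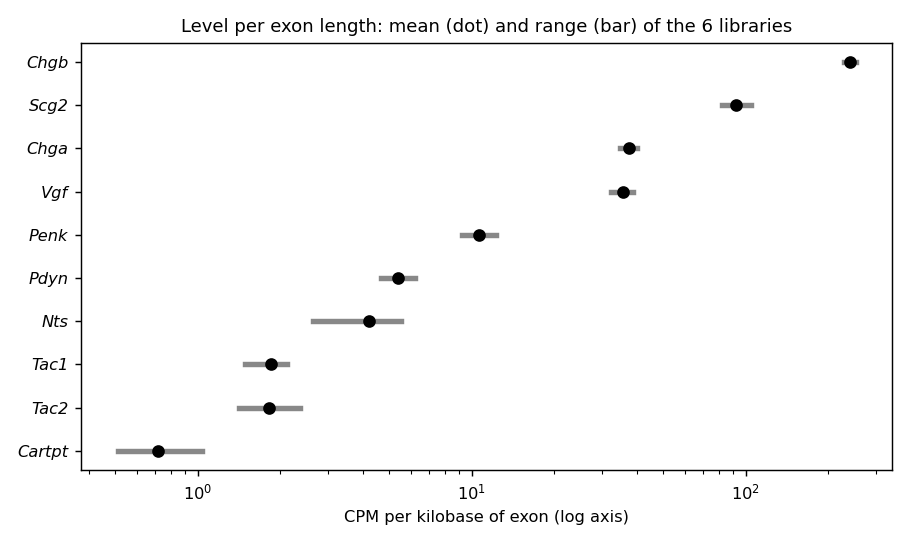
Level of the 10 genes per kilobase of exon, on a log axis, ordered from high to low. Dots are means of all 6 libraries and bars the lowest to highest library, from Chgb at 240 down to Cartpt at 0.713 CPM per kilobase.

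Promoters were examined because cyclic AMP response elements are a known feature of several of these genes. The motif TGACGTCA, which is its own reverse complement, lay in the 250 bases before the start of Scg2, Chgb and Cartpt. These are 3 of the 8 members in the RefSeq promoter table, which have 9 windows there. Of all 32851 windows of the same length, 508 (1.55%) held the motif. A member was counted if any of its windows held a motif, so shares of members and of windows are unlike units. Penk and Vgf are not in that table. The sequences around the motif are given 5' to 3' on the strand of the gene in GRCm38.p6, with the motif in capitals. They lie at chr1:79440061-79440120 on the minus strand, chr2:132781544-132781603 on the plus strand and chr13:99900762-99900821 on the minus strand, and the motif begins 68, 72 and 112 bases before the start.
Scg2: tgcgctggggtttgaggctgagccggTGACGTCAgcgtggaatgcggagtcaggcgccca
Chgb: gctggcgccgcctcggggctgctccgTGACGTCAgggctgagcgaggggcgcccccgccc
Cartpt: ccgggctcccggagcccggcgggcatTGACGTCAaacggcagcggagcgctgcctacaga
The shorter TGACG, sought on both strands and contained in the full motif, was in 6 of the 8 members and in 17.8% of all windows, adding Chga, Nts and Tac1. In Chga it lay 44 bases before the start, at chr12:102554871-102554927 on the plus strand.
Chga: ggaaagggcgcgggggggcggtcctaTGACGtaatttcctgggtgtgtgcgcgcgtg
The 3 genes with the full motif had log2 folds of 0.19 (Scg2), 0.01 (Chgb) and -0.38 (Cartpt), and neither tool called any of them. A match is a run of letters and does not show that a factor was bound.

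Genes induced by cyclic AMP and neuronal activity were then set beside them. None of the 12 had an adjusted p under 0.05 by edgeR's quasi-likelihood test. At an unadjusted p under 0.05 by that test, 4 were higher and 6 lower in knockout hippocampus, against 10.6% of all genes tested in either direction. DESeq2 called 5, all lower, against 1.25% of the genes that it gave an adjusted p. Nr4a1, an orphan nuclear receptor gene that activity induces, was at 114, 112 and 98.6 CPM in knockout libraries, against 160, 154 and 136 CPM in wildtype libraries, with a log2 fold of -0.47 and adjusted p of 0.118 by edgeR and 7.75e-07 by DESeq2. Arc, whose product acts at synapses, was at 238, 251 and 298 CPM against 435, 359 and 360 CPM, and Junb, a transcription factor gene, at 40.6, 44.3 and 37.0 CPM against 68.9, 65.2 and 50.4 CPM. The log2 folds of Arc and Junb were -0.55 and -0.61, and those of Fos and Egr1, the other 2 that DESeq2 called, -0.69 and -0.24. Wildtype library 1 was the highest library for all 5 of these genes. Without the filter on low counts, the adjusted p of edgeR's quasi-likelihood test was 0.00368 for Nr4a1, 0.00607 for Arc, 0.00874 for Junb, 0.0166 for Fos and 0.0578 for Egr1. With offsets for GC content and length none of the 5 passed, with an adjusted p of 0.129 for Nr4a1, 0.329 for Fos and 0.331 for each of Arc, Junb and Egr1 by edgeR's quasi-likelihood test, and log2 folds of -0.41, -0.69, -0.47, -0.49 and -0.17 in that order. Junb shares 173 bases of exon with Prdx2 on the opposite strand, which had 3162 to 6607 reads a library, so its count is uncertain. On the other side were Bdnf (0.17), Nptx2 (0.24), Pcsk1 (0.27) and Inhba (0.44), none called by either tool, which had log2 folds of 0.11, 0.31, 0.21 and 0.38 with those offsets. GC content was 62.6% in Junb, 59.0% in Arc, 57.3% in Egr1, 57.0% in Nr4a1 and 51.9% in Fos, against 58.3% in Nptx2, 41.4% in Inhba, 40.9% in Bdnf and 40.6% in Pcsk1.

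Receptors for these peptides showed no called difference by either tool. Only 1, Ntsr2, had an unadjusted p under 0.05 by edgeR's quasi-likelihood test, against 10.6% of all genes tested. Of the 4 opioid receptor genes, Oprl1, the nociceptin receptor, was most abundant, at 54.2 to 57.8 CPM in knockout and 51.4 to 56.5 CPM in wildtype libraries, with a log2 fold of 0.04 (95% interval -0.08 to 0.16). The delta receptor gene Oprd1 was at 13.3, 13.5 and 14.6 CPM in knockout libraries, against 15.6, 15.8 and 14.4 CPM in wildtype libraries. Its log2 fold was -0.14 (95% interval -0.31 to 0.03), with knockout library 3 just above wildtype library 3. The mu and kappa receptor genes, Oprm1 and Oprk1, were at 1.52 to 2.90 CPM and had log2 folds of 0.03 (95% interval -0.40 to 0.46) and -0.20 (95% interval -0.79 to 0.39). Single libraries moved both, to between -0.16 and 0.14 for Oprm1, and for Oprk1 to 0.00089 without knockout library 1 and -0.48 without knockout library 3. The tachykinin receptor genes Tacr1 and Tacr3, for substance P and neurokinin B, had log2 folds of 0.08 (95% interval -0.39 to 0.54) and 0.03 (95% interval -0.51 to 0.56), and Tacr2 was too low to be tested, at 0.157 to 0.342 CPM.

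The 2 G protein-coupled neurotensin receptor genes lay on opposite sides of 0. Ntsr2 was at 90.4, 92.1 and 89.8 CPM in knockout libraries, against 85.9, 83.1 and 74.0 CPM in wildtype libraries, without overlap, and the adjusted p by edgeR's quasi-likelihood test was 0.398. Ntsr1 was at 4.69, 4.59 and 4.52 CPM in knockout libraries, against 4.78, 5.30 and 6.09 CPM in wildtype libraries, also without overlap, with an adjusted p of 0.559 by edgeR's quasi-likelihood test. Of all genes tested, 16.6% did not overlap. The log2 folds were 0.16 for Ntsr2 and -0.23 for Ntsr1, and 0.01 for Sort1, sortilin, a sorting receptor that also binds neurotensin. Ntsr2 is known from astrocytes, and 6 of the 7 astrocyte markers had a positive log2 fold, with summed levels of 1620 to 1847 CPM in knockout and 1513 to 1626 CPM in wildtype libraries. DESeq2 called 2 of these markers higher and 1, Sox9, lower (log2 fold -0.33 by edgeR, adjusted p 0.0431 by DESeq2). It called 1.25% of all genes that it gave an adjusted p. The part of these markers in the level of Ntsr2 was not tested.

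The enzymes that cut and trim the precursors included 10 genes, with 7 positive and 3 negative log2 folds, a median of 0.03, none called by either tool, and 1 in each direction at an unadjusted p under 0.05. Of all genes tested, 10.6% had an unadjusted p under 0.05 by edgeR's quasi-likelihood test, and 16.6% did not overlap. Pcsk1, prohormone convertase 1, was at 23.8, 24.0 and 22.6 CPM in knockout libraries, against 17.6, 19.1 and 21.4 CPM in wildtype libraries. All knockout libraries were higher, and the log2 fold was 0.27 (95% interval 0.09 to 0.45), with an adjusted p of 0.330 by edgeR's quasi-likelihood test and 0.161 by DESeq2. Furin, a convertase of the Golgi and the cell surface, was at 42.0, 41.1 and 38.8 CPM in knockout libraries, against 45.9, 45.9 and 43.8 CPM in wildtype libraries, again without overlap, with a log2 fold of -0.16 and an adjusted p of 0.358 by edgeR's quasi-likelihood test. With offsets for GC content and length its log2 fold was -0.09, with an adjusted p of 0.755 by the same edgeR test. Pcsk2, prohormone convertase 2, had a log2 fold of 0.02 (95% interval -0.13 to 0.18), and Cpe, carboxypeptidase E, one of 0.10 (95% interval -0.02 to 0.22).

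**Figure D4:**
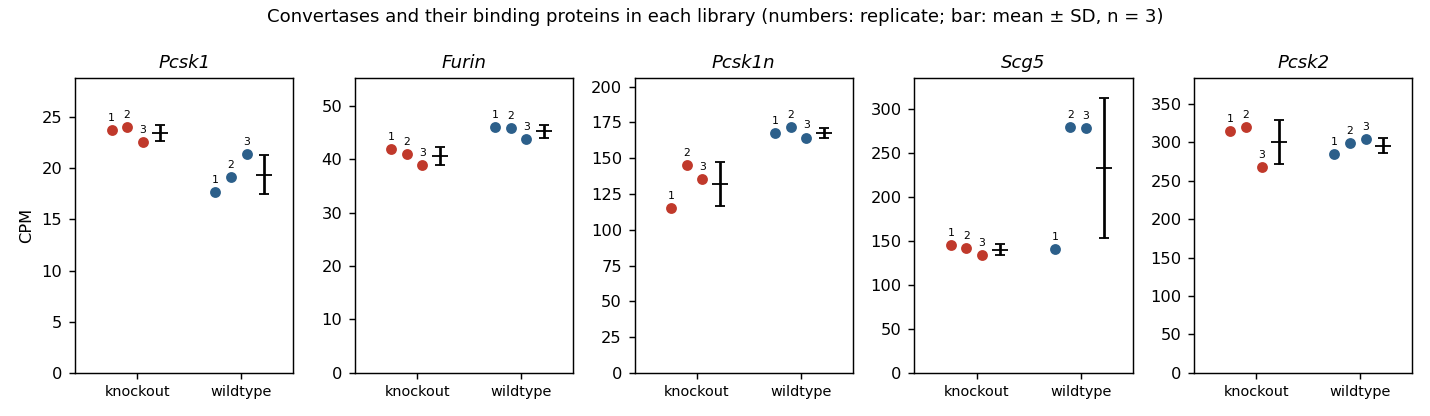
Levels of 3 convertase genes (Pcsk1, Furin, Pcsk2) and of the convertase-binding proteins proSAAS (Pcsk1n) and 7B2 (Scg5) in CPM in knockout (red, left) and wildtype (blue, right) libraries, with the mean ± SD in black. Pcsk1n is lower in all 3 knockout libraries, and Scg5 is at 279 and 278 CPM in wildtype libraries 2 and 3 and at 134 to 145 CPM in the other 4.

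Among the other granin-like proteins, Pcsk1n, which encodes proSAAS, a binding partner and inhibitor of prohormone convertase 1, was at 115, 145 and 136 CPM in knockout libraries, against 167, 172 and 164 CPM in wildtype libraries. Every knockout library was lower. The log2 fold was -0.35 (95% interval -0.52 to -0.18), with an adjusted p of 0.250 by edgeR's quasi-likelihood test, 0.0412 by the same test without the filter on low counts, and 0.00171 by DESeq2. With offsets for base composition the log2 fold was -0.29, with an adjusted p of 0.507 by edgeR's quasi-likelihood test. The folds of Pcsk1n and Pcsk1 thus lay on opposite sides of 0, and DESeq2 called that of Pcsk1n and not that of Pcsk1.

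Scg5, which encodes 7B2, the chaperone of prohormone convertase 2, was at 145, 142 and 134 CPM in knockout libraries, against 141, 279 and 278 CPM in wildtype libraries. Wildtype libraries 2 and 3 stood far above the other 4, and wildtype library 1 was within the range of the knockout libraries. The log2 fold was -0.73 with a standard error of 0.22, and the adjusted p by edgeR's quasi-likelihood test was 0.331. Without wildtype library 1 the log2 fold was -0.99 and the adjusted p of the same test was 0.000824. Without wildtype library 2 they were -0.58 and 0.493, without wildtype library 3 they were -0.59 and 0.415, and the robust edgeR fit gave an adjusted p of 0.516. The nearest protein-coding gene on each side along chromosome 2, in RefSeq order, was Grem1 or Arhgap11a. They had 6.99 and 3.13 CPM in wildtype library 2 and 11.2 and 3.89 CPM in wildtype library 3, against 10.7 and 4.56 CPM in wildtype library 1. In knockout libraries 1, 2 and 3, Grem1 was at 12.9, 15.5 and 11.4 CPM and Arhgap11a at 3.39, 3.30 and 2.94 CPM. Their log2 folds were 0.46 and -0.27, with adjusted p of 0.429 and 0.599 by edgeR's quasi-likelihood test. Fmn1, the next protein-coding gene beyond Grem1, was at 31.8, 32.1 and 33.1 CPM in knockout libraries, against 29.8, 41.2 and 36.8 CPM in wildtype libraries, and was thus highest in the same 2 libraries as Scg5, by a smaller margin. Its log2 fold was -0.15, with an adjusted p of 0.638 by edgeR's quasi-likelihood test. Scg3, secretogranin III, was at 273, 270 and 252 CPM in knockout libraries, against 242, 247 and 259 CPM in wildtype libraries, with a log2 fold of 0.09.

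The 9 genes of the dense-core vesicle membrane and release machinery had a median log2 fold of 0.01, with 5 positive and 4 negative, none called by either tool and none at an unadjusted p under 0.05. Those with the smallest p were Rab27b, a small GTPase of vesicle traffic (log2 fold 0.15), Slc18a2, the vesicular monoamine transporter (0.15), and Rab3a, a GTPase of regulated release (-0.04). Of 32 other neuropeptide precursor genes 17 could be tested, 8 with a positive and 9 with a negative log2 fold, and none was called by either tool (1 in each direction at an unadjusted p under 0.05). Over all genes tested, 10.6% had an unadjusted p under 0.05 by edgeR's quasi-likelihood test, and 16.6% did not overlap. Somatostatin (Sst), neuropeptide Y (Npy) and cholecystokinin (Cck), which mark classes of hippocampal interneurons, had log2 folds of -0.18, -0.13 and -0.05, and vasoactive intestinal peptide (Vip), which marks another, had one of 0.28 (95% interval -0.03 to 0.59). Leaving out 1 library gave -0.31 to -0.07 for Sst, -0.23 to -0.0042 for Npy, -0.11 to 0.00021 for Cck and 0.19 to 0.43 for Vip. Grp, gastrin-releasing peptide, was at 15.7, 17.6 and 17.7 CPM in knockout libraries, against 15.1, 13.7 and 14.2 CPM in wildtype libraries, without overlap and with an adjusted p of 0.347 by edgeR's quasi-likelihood test. Adcyap1, the precursor of the peptide PACAP, was at 6.99, 6.56 and 6.61 CPM against 3.71, 4.36 and 6.90 CPM, where wildtype library 3 was among the highest. Npff was at 0.493 to 0.622 CPM in knockout and 0.659 to 1.07 CPM in wildtype libraries, but shares 327 bases of exon on the same strand with Gm28047, so its count is uncertain. Pnoc, the nociceptin precursor, had a log2 fold of -0.06 and Pomc, the source of beta-endorphin, one of 0.35 from at most 0.777 CPM. Tac4 had 1 read in 1 library, and 2 precursor genes, Nmu and Ucn, had none in any.

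Base composition was set beside the folds. With the genes ordered by GC content and cut into 5 equal bins, the median log2 fold was 0.06, 0.03, 0.01, -0.03 and -0.08 by bin, lower as GC rose. Vgf, at 64.1% GC, was in bin 5, Scg2, at 46.8%, in bin 2, and Nts, at 39.4%, in bin 1. With offsets for GC content and length in the same edgeR fit, the log2 fold of Vgf was -0.02 (adjusted p 0.970), that of Scg2 was 0.15 (adjusted p 0.559), and that of Nts was 0.33. The fold of Vgf was thus close to 0 with these offsets. That of Scg2 was positive in each of 15 alternative settings, with 0.146 the lowest value, without knockout library 3.

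**Figure D5:**
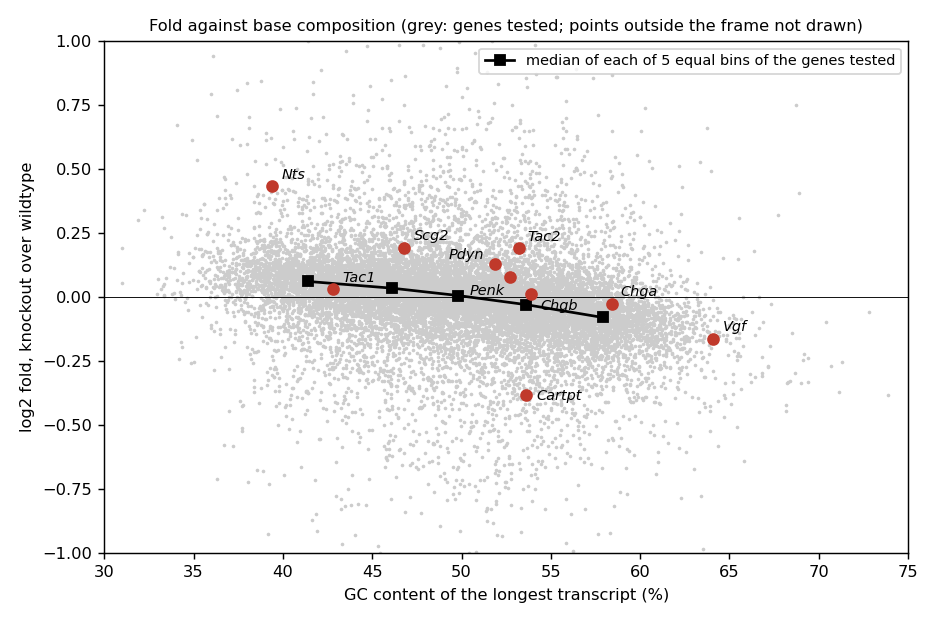
Log2 fold of knockout over wildtype (vertical axis) against the GC content of the longest transcript (horizontal axis, percent), for the genes tested (grey) and the 10 members (red). Black squares are medians of 5 equal bins of the genes, which run from 0.06 at low to -0.08 at high GC.

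Genes whose pattern over the 6 libraries was most like that of Scg2, by the mean absolute difference of centred log2 CPM, were Fam208b (0.0137), Fam107b (0.017) and Jak2 (0.0226). Fam208b was at 59.4, 61.6 and 66.6 CPM in knockout libraries, against 53.3, 56.0 and 58.1 CPM in wildtype libraries, the same order of libraries as Scg2. The genes nearest to Nts were Ifit1 (0.0446), Hebp2 (0.0523) and Cyb5r2 (0.0716), all at under 3 CPM. This likeness was taken over 6 libraries that share their depth and base composition differences.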

How the data were processed

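Total RNA was purified on RNeasy columns with DNase treatment and sequenced on an Illumina HiSeq1000, as the labels state. The deposited values are raw counts of reads per Ensembl gene, with 1 table for each mouse. The submitters' processing notes name build mm9, the aligner STAR (2.3.0e), HTSeq, SAMtools, FastQC (0.10.1) and DESeq2. The strand setting is not given in the sources used here, and sense and antisense reads cannot be told apart. The 5 rows that name no gene held 38.0% to 40.3% of each file and were left out. The tables hold 37620 identifiers, of which 32897 matched a GENCODE M21 name (GRCm38); since reads were counted on mm9, coordinates are given only for RefSeq sequences.

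Knockout was tested against wildtype over all genes with edgeR 4.0.16 (R 4.3.3; filterByExpr, TMM, quasi-likelihood test, Benjamini-Hochberg at 0.05), and log2 folds, standard errors and 95% intervals are from that fit. Its scripts were tested on simulated counts. DESeq2 1.42.0 and limma-voom (limma 3.58.1), other scaling, other filters, a robust edgeR fit, the replicate number as a block, a looser adjusted p (0.10) and leaving out each library were alternatives. Offsets for GC content and length, added after seeing the data, were fitted by loess per library. Low counts limit precision (the intervals are for the log2 fold under the fitted model, with 3 mice a group). The members and all lists were chosen with earlier results of these data known. All 10 members are described. From lists of up to 6 genes all members are named, from longer ones the 3 with the smallest p and the main convertases and interneuron peptides, from the marker lists described the 2 most abundant, except astrocytes and the hypothalamus, given as sums. Fos, Egr1, Bdnf, Nptx2 and Inhba, Vip, the neighbours of Scg5, Six3, Pou3f1 and precursors without reads were named after their values were seen. Pter, C1ql2 and Sox9 were named in the same way. Pattern likeness used a pseudocount of 0.1 CPM and was sought for the member of smallest p and the one of widest range.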

Additional observations from a re-analysis of the deposited data

How the results depend on the processing

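None of the 10 genes was called by edgeR, DESeq2 or limma-voom in any alternative, with the replicate block included. The smallest adjusted p over these settings was 0.0884 for Scg2 and 0.237 for Vgf, both by DESeq2. The number of genes called among all tested was 0 with the reported fit, 18 at an adjusted p of 0.10, 62 without a filter beyond 1 read, 164 with DESeq2 and 15 with the robust fit, and the cause was not tested. It was also 0 with DESeq2 size factors, upper quartile factors, the 1 CPM filter, limma-voom, the replicate block and the GC and length offsets. Leaving out 1 library gave 0 to 17 genes, with 17 without knockout library 3, 16 without wildtype library 2, 2 without knockout library 1 and 2 without wildtype library 1.

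Directions of Pdyn, Tac2, Nts, Scg2, Vgf and Cartpt were kept in every setting run, with log2 folds on leaving out 1 library of 0.06 to 0.20, 0.04 to 0.36, 0.25 to 0.64, 0.15 to 0.23, -0.21 to -0.13 and -0.52 to -0.17. With the GC and length offsets, the log2 fold of Vgf was -0.02, with an adjusted p of 0.970 by edgeR's quasi-likelihood test. Cartpt was left out by the 1 CPM filter. Folds close to 0 changed sign. Penk ran from -0.00736 (without knockout library 2) to 0.173. Tac1 ran from -0.102 (without wildtype library 2) to 0.141, with -0.00512 without knockout library 3, and was at -0.0335 with the GC and length offsets. Chga ran from -0.0843 to 0.0161 (without wildtype library 1), and was at 0.0428 with those offsets. Chgb ran from -0.0183 (without wildtype library 2) to 0.0499, with -0.0176 without knockout library 2. The replicate numbers do not pair mice, since each came from its own litter, and the correlations of same-numbered deviations were -0.0838, 0.00609 and -0.0901; with the number as a block no gene was called. Cartpt had 21 to 53 reads a library and Tac2 78 to 119, the lowest counts among the 10.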
